A study of Mus musculus with 18 samples.

Results

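After 2 days in IL-3, mouse FDH cells whose IL-3 receptor carries the IL3Rα change P248L were compared with FDH cells carrying wild-type IL3Rα. All libraries labelled day 2 were taken, 3 of the P248L line and 3 of the wild-type line, which are 6 of the 18 libraries of the series. FDH cells derive from the fetal liver of BALB/c embryos at E14.5 and were immortalised. They were used at passages 10 to 12. Their mice carry deletions of both IL-3 signalling subunits (bc-/- bIL-3-/-), so both lines had βc put back by transduction together with their IL3Rα, wild-type in one line and P248L, called Site 4 mutant in the series title, in the other. Until the start the cells were kept with doxycycline and 100 ng/ml mouse SCF, the ligand of the receptor Kit, and cells from that medium form the untreated groups. For day 2 and day 5 they were washed and plated with 100 ng/ml IL-3, in a medium for which neither SCF nor doxycycline is listed. At day 2 the lines thus differ in IL3Rα but not in medium, while a change from untreated to day 2 covers IL-3, the loss of SCF and the loss of doxycycline together. Each receptor is 1 line, so effects of the receptor and of the line cannot be told apart, and untreated levels are given beside many results for that reason.

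The IL-3 receptor pairs IL3Rα, which binds the cytokine, with βc, which carries JAK2. Its signal runs through STAT5, with targets such as Cish and Pim1, and through the MAPK cascade, with immediate-early targets such as Egr1 and feedback phosphatases such as Dusp6. In myeloid progenitors IL-3 is known to support survival, division and differentiation toward neutrophils, basophils, mast cells and macrophages. Neutrophil genes come on in order, those of primary granules such as Mpo in promyelocytes and those of secondary and tertiary granules such as Ltf and Ngp later.

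Reads in genes numbered 14901822 to 23124569 per day 2 library. P248L library 3 stood apart from its group: chi-square per degree of freedom against the other P248L libraries was 185 and 93.2, against 37.3 between those libraries and 9.68 to 16.2 between wild-type libraries. It also held 3.44% of its reads in the ribosomal RNA precursor Rn45s, and its log2 levels followed transcript length and GC content most, with an SD of that trend of 0.452 against 0.0269 to 0.176 in the other day 2 libraries. P248L untreated library 1 stood apart in chi-square, at 142 and 200 against the others of its group and 29.5 between those. Its trend with length and GC content was also large (SD 0.373). Its Rn45s share was not raised, at 0.159% against 0.359% in P248L untreated library 2. The labelled cell type was checked on 6 markers of blood and myeloid progenitor cells (Ptprc, Sfpi1, Cd34, Kit, Mpo and Itgam), and all 6 were above 1 CPM in both lines. That is a low bar, and the markers were not level between the lines. Itgam read 419.9, 430.3 and 367.8 CPM in wild-type and 44.12, 56.45 and 53.67 CPM in P248L libraries. Cd34, Kit and Mpo were higher in all P248L libraries, and libraries overlapped for Ptprc and Sfpi1. Erythroid markers summed to at most 0.861 CPM in each day 2 library. Nothing in the labels ties the replicates to separate cultures, and p-values therefore reflect only how far these libraries spread, which may be technical.

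Gene levels are given in CPM, reads per 1000000 gene reads with TMM-scaled library sizes, as means with the SD over n = 3 libraries, and a log2 fold change is P248L over wild-type, with its SE. A gene is called different at an adjusted p under 0.05 in the quasi-likelihood test of edgeR. Of 11942 genes tested, 4274 (35.8%) differed between the lines at day 2. The P248L line was lower in 2427 (20.3%) and higher in 1847 (15.5%). These shares are the ones to set beside the day 2 count of each gene list below. Untreated, 11.3% were lower and 10.3% higher in P248L cells, and at day 5 22.7 and 22.8% were. From untreated to day 2, 22.1% rose and 21.8% fell in wild-type cells, and 18.5 and 21.5% in P248L cells. That change was lower in P248L than in wild-type cells for 6.5% and higher for 3.05%. Counts of the lists in those comparisons go with these shares. The lower side held the larger differences: the median absolute log2 fold change was 1.23 among genes lower in P248L and 0.66 among genes higher, and 1430 lower genes against 451 higher ones differed over 2-fold. Without P248L library 3 the counts were 2317 lower and 1650 higher, and without it and P248L untreated library 1 they were 2793 and 2267. All P248L libraries lay below all wild-type libraries in 3067 genes (25.7%) and above them in 2460 (20.6%). For 7473 genes (62.6%) the 95% interval of the difference lay within 2-fold either way. In whole-culture RNA, fewer cells of a type and less RNA per cell cannot be told apart.

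**Figure D1:**
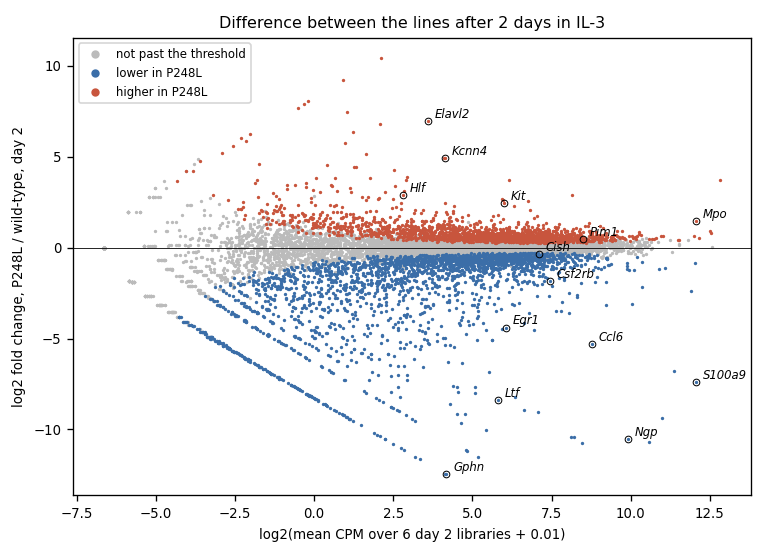
Each point is 1 of the 11942 genes tested. The horizontal axis is the log2 of the mean CPM over the 6 day 2 libraries (0.01 added) and the vertical axis the log2 fold change of P248L over wild-type; colours mark genes past the threshold. The oblique streaks at the lower edge are genes with no or few reads in P248L libraries, whose fitted fold depends on a prior count. Ngp, Ltf and S100a9 lie far below 0, Cish and Pim1 near 0, and Kit, Hlf and Mpo above.

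Among targets of STAT5, some did not pass between the lines or were higher in the P248L line, and others were lower. Cish, the STAT5-induced feedback inhibitor (GRCm38 chromosome 9, 107296659 to 107302784), read 153, 141 and 170.0 CPM in wild-type libraries 1 to 3 and at 153, 106 and 101 CPM in P248L libraries. The libraries of the lines overlapped, and the log2 fold change of -0.37 ± 0.18 did not pass (edgeR adjusted p = 0.13, 95% interval -0.75 to 0.01). From untreated levels of 6.73 ± 0.478 and 7.32 ± 2.51 CPM, Cish rose in both lines, by 4.52 ± 0.21 in wild-type and 4.02 ± 0.21 in P248L cells on the log2 scale. Pim1, a survival kinase (chromosome 17, 29490785 to 29496111), read 309, 288 and 329 CPM in wild-type and 484, 407 and 371 CPM in P248L libraries, higher in all 3 of the latter (log2 fold change 0.45 ± 0.13, adjusted p = 0.015). That call did not hold without wild-type library 2 (adjusted p = 0.051), and Pim1 was already higher in P248L cells untreated (49.6 ± 5.47 against 32.7 ± 4.85 CPM). Socs2 and Socs3, inhibitors of cytokine receptor signalling, stood at 41.9 ± 3.07 and 6.95 ± 0.887 CPM in wild-type and at 47.7 ± 13.1 and 6.02 ± 0.892 CPM in P248L cells, with 95% intervals of -0.25 to 0.62 and -0.59 to 0.16 for their log2 fold changes. Ccnd2, cyclin D2, had an interval of -0.31 to 0.21 and Id1, an inhibitor of basic helix-loop-helix factors, one of -0.65 to 0.34. These intervals exclude a 2-fold difference at day 2, which is not a statement that the levels were equal.

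The promoter of Cish is printed because it holds paired STAT5-type motifs, TTCNNNGAA, in capitals; the gene was picked after its values were seen. The window, from RefSeq on GRCm38.p6 (chr9:107296409-107296708, forward strand), runs 5′ to 3′ from 250 bases before to 50 after the annotated start. In all, 8.3% of 32851 RefSeq promoter windows hold the motif, which reads the same on both strands, and 3 of the 13 STAT5-responsive genes with a window do.
Cish: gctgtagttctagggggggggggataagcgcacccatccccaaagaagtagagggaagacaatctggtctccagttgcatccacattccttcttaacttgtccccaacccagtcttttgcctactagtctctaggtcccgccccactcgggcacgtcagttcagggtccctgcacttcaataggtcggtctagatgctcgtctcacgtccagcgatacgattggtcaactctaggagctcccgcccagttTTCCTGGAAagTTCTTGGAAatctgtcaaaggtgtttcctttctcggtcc
None of those 3 genes (Cish, Socs3 and Bcl6) passed in the comparison at day 2. A match is a string of letters and not a measured site.

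Other STAT5-responsive genes were lower in the P248L line. Of 19 tested members, 11 were lower and 2 higher, with a median log2 fold change of -0.67 against 0.00 over all genes tested. Without wild-type library 2 the counts were 7 and 1. From untreated to day 2, 11 of the 19 rose and 1 fell in P248L cells, while 15 rose and none fell in wild-type cells. Over all genes tested, 18.5% rose and 21.5% fell in P248L cells, and 22.1 and 21.8% in wild-type cells. Bcl2l1, which encodes the anti-apoptotic BCL-XL (chromosome 2, 152758732 to 152833803), stood at 100.0, 112 and 109 CPM in wild-type and 60.1, 51.8 and 36.5 CPM in P248L libraries, with no overlap (log2 fold change -1.11 ± 0.16). Osm, the cytokine oncostatin M, read 51.5, 50.9 and 42.6 CPM against 30.9, 22.8 and 20.4 CPM (log2 fold change -0.96 ± 0.26). Untreated, the order was the other way, 2.44 ± 0.527 CPM in wild-type and 10.3 ± 2.71 CPM in P248L cells. Lif, a cytokine of the same family, stood at 6.14 ± 2.4 and 0.21 ± 0.193 CPM, Socs1, an inhibitor of JAK kinases, at 6.82 ± 0.609 and 1.96 ± 1.22 CPM, and Ccnd1, cyclin D1, at 12.7 ± 3.54 and 4.87 ± 1.2 CPM, each lower in P248L cells. Il2ra, the IL-2-binding receptor subunit, read 7.95 ± 0.727 and 1.51 ± 0.47 CPM. The largest edgeR adjusted p among these genes was 0.0068 (Osm).

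Immediate-early genes and MAPK feedback genes were mostly lower in P248L cells, 15 of 25 tested members, with 2 higher, or 1 higher without wild-type library 2 (median log2 fold change -1.09). Egr1, a zinc finger factor induced by MAPK signalling, stood at 149, 112 and 120.4 CPM in wild-type and at 7.03, 3.51 and 7.35 CPM in P248L libraries, with no overlap (log2 fold change -4.41 ± 0.33). Both lines had begun near the same low level, 4.27 ± 1.59 and 2.56 ± 0.0378 CPM untreated. Dusp6, the phosphatase that acts on ERK (chromosome 10, 99263231 to 99267489), read 95.6, 94.0 and 105 CPM in wild-type and 12.3, 12.6 and 18.6 CPM in P248L libraries (log2 fold change -2.77 ± 0.18). In wild-type cells Dusp6 did not pass between untreated and day 2 (adjusted p = 0.25), whereas in P248L cells it fell from 91.9 ± 11.1 CPM (log2 change -2.67 ± 0.17). Fosl2, an AP-1 subunit, was at 39.2 ± 2.11 and 13.9 ± 0.959 CPM, and Spry4, a MAPK feedback inhibitor, at 2.11 ± 0.595 and 0.0793 ± 0.0412 CPM. The early response gene Ier3 did not pass, at 37.6 ± 0.813 and 33.4 ± 3.58 CPM (95% interval -0.64 to 0.30). Of the genes called here, Spry4 had the largest edgeR adjusted p, 6.7e-06. By day 5 Dusp6 stood at 207 ± 35.2 CPM in wild-type and 271 ± 40.1 CPM in P248L cells and Egr1 at 336 ± 115 and 211 ± 54.8 CPM, and neither passed between the lines (adjusted p = 0.057 and 0.057).

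**Figure D2:**
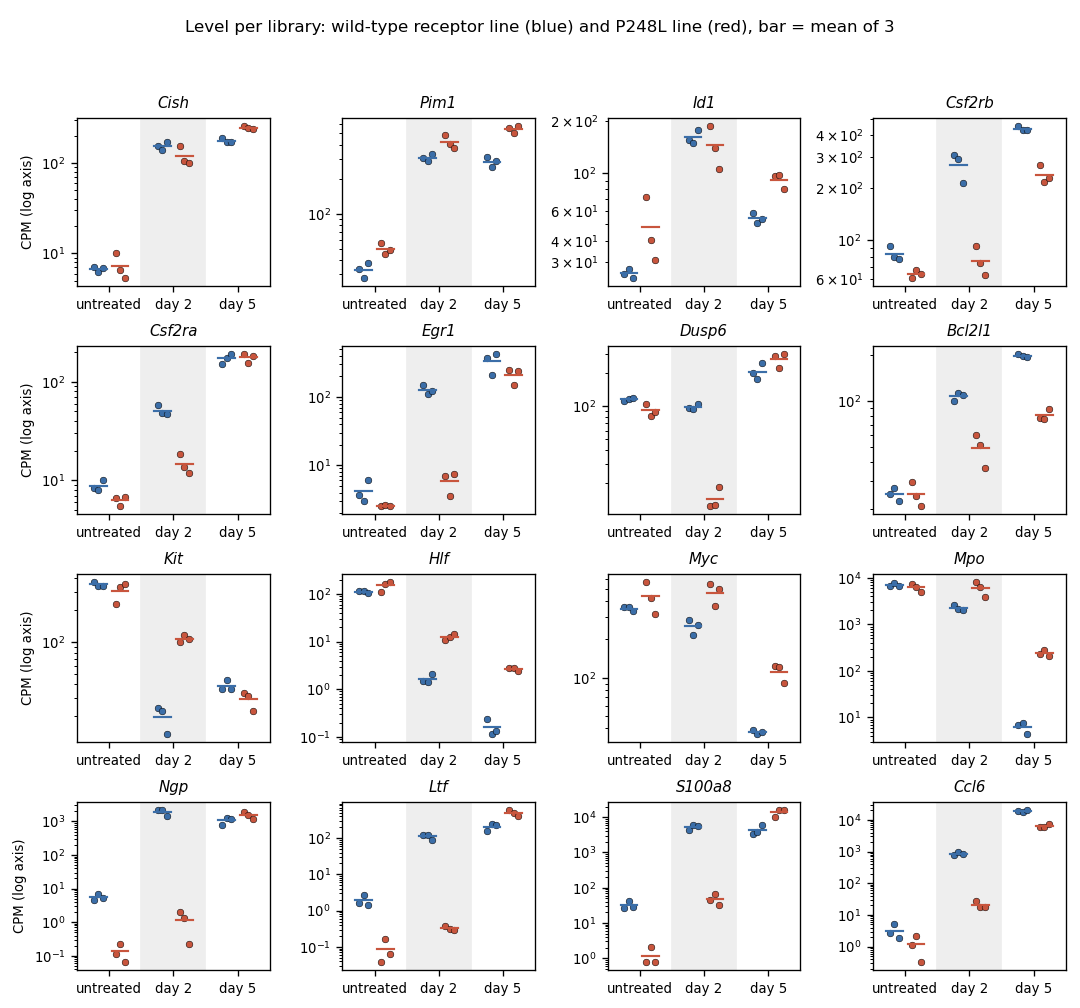
Each panel shows 1 gene, with CPM on a log axis and a point per library; bars are means of 3 libraries, blue the wild-type and red the P248L line, and the day 2 groups are shaded. Cish, Pim1 and Id1 overlap or nearly meet at day 2, whereas Egr1, Dusp6, Ngp, Ltf, S100a8 and Ccl6 are apart at day 2 and closer at day 5.

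Of the receptor genes of the IL-3 family, Csf2rb, Csf2rb2 and Csf2ra were lower and Il3ra and Il5ra did not pass. Csf2rb, which encodes βc, was at 271 ± 50.7 CPM in wild-type and 76.3 ± 14.8 CPM in P248L cells at day 2 (log2 fold change -1.83 ± 0.16). Its neighbour Csf2rb2, a near-identical copy whose reads may be shared with it, was at 329 ± 59.8 and 102 ± 4.84 CPM. The rise seen in wild-type cells, 1.70 ± 0.16 for Csf2rb on the log2 scale, did not pass in P248L cells (edgeR adjusted p = 0.2), and the difference of the responses, -1.45 ± 0.22, did (adjusted p = 2.2e-04). Csf2rb and Csf2rb2 belong to the subunits deleted in the mice (bc-/- bIL-3-/-), so their reads cannot be taken as levels of intact genes. Whether these reads come from what remains of the deleted genes or from the transduced βc, whose species is not stated, was not tested. Csf2ra, the GM-CSF-binding subunit, read 57.8, 48.0 and 46.8 CPM in wild-type and 18.5, 13.5 and 11.9 CPM in P248L libraries (log2 fold change -1.79 ± 0.17). It rose in both lines, by 2.53 ± 0.17 and 1.23 ± 0.17 on the log2 scale, less in P248L cells (adjusted p of the difference = 0.0014), and by day 5 the lines stood at 173 ± 19.8 and 177 ± 19.3 CPM. Il3ra, read at 3.05, 2.18 and 2.77 CPM in wild-type and 2.11, 1.48 and 0.441 CPM in P248L libraries, and Il5ra, at 1.44, 2.41 and 1.25 CPM in wild-type and 0.786, 1.23 and 0.735 CPM in P248L libraries, did not pass (adjusted p = 0.083 and 0.074). Both lines carry a transduced IL3Rα, and whether its reads were counted in Il3ra was not tested.

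Over 24 cytokine receptors, 9 were lower and 6 higher in P248L cells, where 20.3% of all genes tested were lower and 15.5% higher. Il1rl1, the IL-33 receptor of basophils and mast cells, was at 38.4 ± 11.0 CPM in wild-type and 0.962 ± 0.198 CPM in P248L cells, having already differed untreated (3.43 ± 0.159 against 0.357 ± 0.153 CPM). Il1r2, a decoy receptor for IL-1, was at 20.6 ± 2.27 and 2.19 ± 0.56 CPM, from 0.17 ± 0.115 and 0.146 ± 0.103 CPM untreated. Il2rg, the common gamma chain, stood at 76.5 ± 6.62 and 76.1 ± 5.77 CPM, with an interval of -0.26 to 0.25 for its log2 fold change. Among 15 genes of the JAK and STAT list 7 were lower and none higher, with a median of -0.38. Untreated, 6 of the 15 were already lower and none higher (median -0.30). No member passed in the difference of responses. Stat3, which many cytokine receptors activate, was at 96.8 ± 3.98 and 70.6 ± 5.56 CPM (log2 fold change -0.45 ± 0.10) and the kinase gene Tyk2 at 55.4 ± 4.21 and 31.6 ± 10.4 CPM. Stat4 had few reads in the P248L line at 0.142 ± 0.0709 CPM against 12.3 ± 2.13 CPM, and was so before IL-3, at 0.194 ± 0.0573 against 18.5 ± 0.537 CPM. Jak1 and the phosphatase gene Ptpn6 did not pass (intervals -0.56 to 0.04 and -0.33 to 0.25). The largest edgeR adjusted p of the genes called in this paragraph was 0.0044 (Tyk2). With P248L library 3 left out, 1 gene of the JAK and STAT list was called higher, and 3 were after removal of the length and GC trend.

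Genes of secondary and tertiary neutrophil granules were mostly lower in the P248L line at day 2. Of 25 tested members 23 were lower and none higher, with a median log2 fold change of -4.45. Untreated, 13 of the 25 were already lower and 1 higher, with a median of -2.22. From untreated to day 2, 14 of the 25 rose and 1 fell in P248L cells, while 24 rose and none fell in wild-type cells. The shares of all genes tested that rose were 18.5% in P248L and 22.1% in wild-type cells. Ngp, a neutrophil granule protein (chromosome 9, 110419808 to 110423012), stood at 2237, 2156 and 1412 CPM in wild-type libraries and at 2.03, 1.29 and 0.221 CPM in P248L libraries, a log2 fold change of -10.55 ± 0.46. Ltf, lactoferrin (chromosome 9, 111019292 to 111042766), read 123, 125 and 90.7 CPM against 0.372, 0.308 and 0.294 CPM (log2 fold change -8.38 ± 0.34). Cd177, a neutrophil surface protein, read 197, 159.9 and 133 CPM against 0.62, 0.431 and 0.515 CPM (log2 fold change -8.24 ± 0.32). In all 3 genes the P248L libraries lay far below the wild-type ones, without overlap. S100a9, a subunit of calprotectin, read 7686, 9569 and 8476 CPM in wild-type and 48.9, 67.4 and 34.6 CPM in P248L libraries, and its partner S100a8 4250.1, 6098 and 5516 CPM in wild-type and 44.8, 65.1 and 32.6 CPM in P248L libraries. The cathelicidin gene Camp was at 41.5 ± 5.75 and 0.216 ± 0.239 CPM and the granule glycoprotein gene Olfm4 at 67.3 ± 20.1 and 0.241 ± 0.092 CPM. Retnlg, a resistin-like protein of neutrophils, had no reads in P248L libraries and 11.2 ± 1.72 CPM in wild-type, at least 199.7-fold lower on a floor of 3 reads over the group. The stefin genes Stfa2, Stfa3 and Stfa2l1, uncertain because the family has near-identical copies, were at 552, 586 and 704 CPM in wild-type and at 0.341, 0.361 and 0.361 CPM in P248L cells.

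Some of these genes had begun to rise in P248L cells from a lower start. S100a8 rose there from 1.2 ± 0.724 to 47.5 CPM (log2 change 5.23 ± 0.40), and in wild-type cells from 31.7 ± 8.2 to 5288 CPM (log2 change 7.38 ± 0.41). Lcn2, a siderophore-binding lipocalin, started level, at 2.0 ± 0.337 and 2.33 ± 0.681 CPM, and rose to 368 ± 60.9 CPM in wild-type and 33.0 ± 9.19 CPM in P248L cells (edgeR adjusted p of the difference of the responses = 2.0e-06). Anxa1, annexin A1, a regulator of inflammation, rose in wild-type cells from 141 ± 11.0 to 1893 ± 206 CPM and stood at 237 ± 10.3 and 224 ± 32.3 CPM in P248L cells untreated and at day 2, where it did not pass (adjusted p = 0.71). The 2 members that did not pass between the lines were Hp, haptoglobin, at 68.7 ± 6.5 and 70.3 ± 8.77 CPM (interval -0.43 to 0.50), and Cyba, a subunit of the NADPH oxidase, at 202 ± 24.1 and 127 ± 48.9 CPM. Lyz2, a lysozyme of neutrophils and macrophages, was at 541 ± 58.5 and 87.3 ± 20.6 CPM (log2 fold change -2.63 ± 0.22, adjusted p = 3.9e-08). At day 5, 10 of the 25 granule genes were higher and 7 lower in the P248L line, with a median log2 fold change of 0.06 against wild-type: Ngp stood at 1096 ± 265 CPM in wild-type and 1507 ± 349.6 CPM in P248L cells, Ltf at 209.9 ± 43.9 and 504 ± 107 CPM and Lcn2 at 180.4 ± 38.8 and 691 ± 35.2 CPM.

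The promoters of Ngp and Ltf are printed as those of granule genes that the P248L line lacked. Capitals mark TTGCNNAA, a short form of the motif of C/EBP factors, on either strand. It was chosen after the values of these genes were seen. The windows, of the same size as above, lie at chr9:110419558-110419857, forward strand and chr9:111019042-111019341, forward strand of GRCm38.p6.
Ngp: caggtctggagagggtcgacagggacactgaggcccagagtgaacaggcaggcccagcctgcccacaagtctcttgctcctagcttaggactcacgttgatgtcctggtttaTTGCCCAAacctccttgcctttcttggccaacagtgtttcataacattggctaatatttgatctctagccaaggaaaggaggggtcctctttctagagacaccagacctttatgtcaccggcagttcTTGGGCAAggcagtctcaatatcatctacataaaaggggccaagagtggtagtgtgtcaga
Ltf: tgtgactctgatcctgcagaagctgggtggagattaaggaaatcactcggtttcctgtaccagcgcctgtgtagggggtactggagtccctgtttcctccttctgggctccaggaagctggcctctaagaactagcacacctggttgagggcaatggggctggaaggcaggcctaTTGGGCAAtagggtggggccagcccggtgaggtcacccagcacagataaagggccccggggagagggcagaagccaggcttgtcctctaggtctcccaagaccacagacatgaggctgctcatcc
The motif stands in 8 of the 20 granule genes with a window and in 10.8% of all windows; no test was made of that difference.

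Regulators of the granulocyte program were lower too, though less so than the granule genes. Of 16 myeloid lineage factors 10 were lower and 2 higher (median -1.15). Cebpe, the factor needed for secondary granule genes, read 214, 190.3 and 215 CPM in wild-type and 94.7, 67.1 and 47.2 CPM in P248L libraries (log2 fold change -1.57 ± 0.24). It had nevertheless risen in P248L cells from 7.87 ± 3.36 CPM, by 3.14 ± 0.26 on the log2 scale. Gfi1, a repressor needed for neutrophils, stood at 129.9 ± 6.96 and 60.5 ± 15.0 CPM, Gata2, a factor of progenitors and mast cells, at 105 ± 7.97 and 45.7 ± 11.5 CPM, and Id2, an inhibitor of helix-loop-helix factors, at 40.5 ± 4.65 and 4.08 ± 0.867 CPM. Cebpa and Irf8, which act in earlier granulocyte and monocyte progenitors, went the other way. Cebpa read 24.0, 22.4 and 22.9 CPM in wild-type and 105, 76.3 and 50.4 CPM in P248L libraries, and Irf8 10.0, 8.89 and 15.6 CPM in wild-type and 18.2, 19.2 and 26.5 CPM in P248L libraries. Sfpi1, which encodes PU.1, and Cebpb did not pass, at 201 ± 34.9 and 129.8 ± 57.1 CPM and at 96.7 ± 5.12 and 65.9 ± 11.6 CPM. The largest edgeR adjusted p of the genes called here was 0.0013 (Irf8).

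Basophil and mast cell genes followed the same side, 11 of 13 tested members lower and none higher (median -2.26). Ccl3, Il6 and Gata2 of this list are members of other lists too. Osm and Lif stand in both the STAT5-responsive and the chemokine lists. Counts of lists that share members are not separate results. Cpa3, mast cell carboxypeptidase, stood at 914, 1099 and 786 CPM in wild-type and 252, 255 and 255 CPM in P248L libraries (log2 fold change -1.88 ± 0.19). It rose in wild-type cells from 577 ± 81.0 CPM and fell in P248L cells from 510.3 ± 43.1 CPM. Cd200r3, an activating receptor of basophils and mast cells, was at 56.5 ± 8.18 and 6.48 ± 1.36 CPM, and Cyp11a1, a steroid-forming enzyme, at 156 ± 18.1 and 43.5 ± 15.6 CPM. The basophil protease gene Mcpt8 did not pass, at 8.83 ± 1.96 and 8.27 ± 0.992 CPM. Of 7 mast cell markers, Mcpt4, Tpsab1 and Fcer1a had no reads in any day 2 library and Tpsb2 was at or near 0, so the summed level of the markers (794 to 1110 CPM in wild-type and 261 to 263 CPM in P248L libraries) was almost all Cpa3. Eosinophil markers summed to 4.07 to 5.97 CPM in wild-type and 0 to 0.372 CPM in P248L libraries, Prg2 making up most of it. Among the genes called here, the largest edgeR adjusted p was 2.9e-06 (Cyp11a1).

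Chemokines and cytokines were lower in 13 of 20 tested members and higher in none (median -2.39). Ccl6, a myeloid chemokine, read 779, 957 and 839 CPM in wild-type and 28.4, 17.4 and 18.3 CPM in P248L libraries (log2 fold change -5.32 ± 0.38). Ccl9, a chemokine for monocytes, read 731, 839 and 666 CPM in wild-type and 194, 178 and 237 CPM in P248L libraries, and it was the P248L line that had moved: from 748 ± 53.7 CPM untreated it did not pass in wild-type cells (adjusted p = 0.99) and fell in P248L cells from 817 ± 149 CPM. Ccl3, also a chemokine of inflammation, was at 296 ± 66.5 and 46.6 ± 3.05 CPM, the cytokine Il6 at 15.2 ± 2.5 and 1.18 ± 0.414 CPM and Il1rn, the IL-1 receptor antagonist, at 24.6 ± 5.69 and 1.65 ± 0.562 CPM. Tnf and Tgfb1 did not pass, with intervals of -0.71 to 0.02 and -0.84 to 0.08. Of the genes called here Ccl3 had an edgeR adjusted p of 1.5e-07 and Il6 the largest, 1.9e-07.

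**Figure D3:**
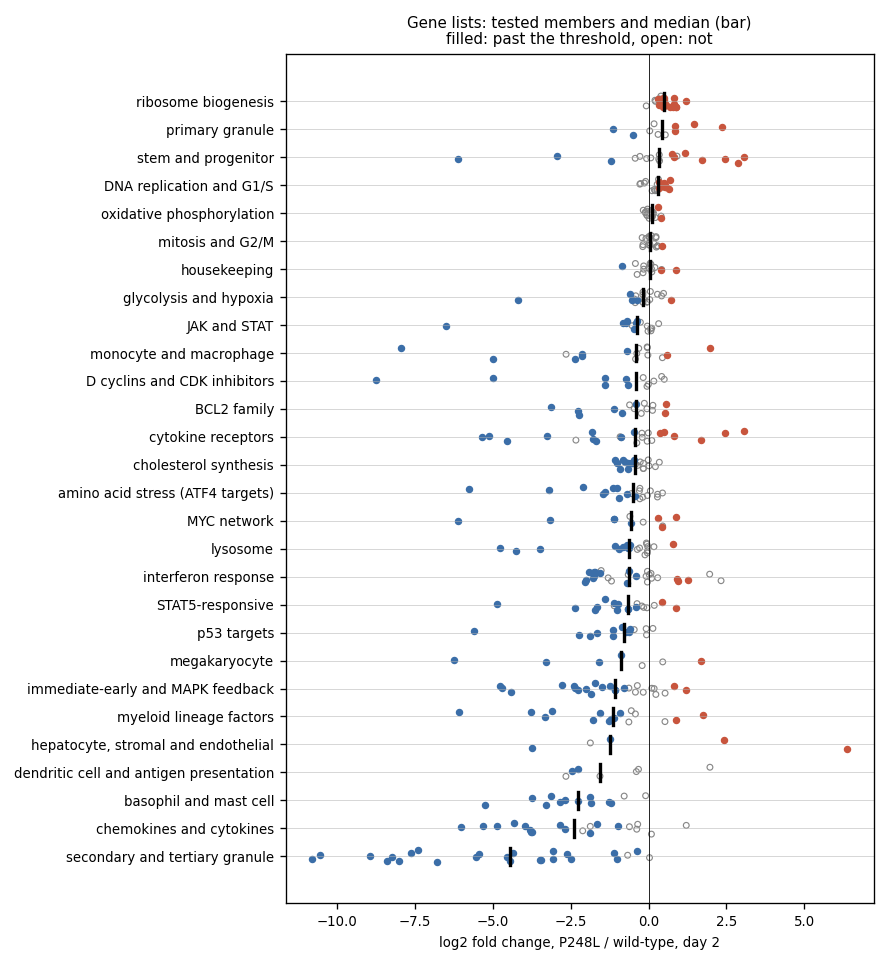
Each row is a gene list with at least 5 tested members, each point a member and the bar the list's median log2 fold change of P248L over wild-type at day 2; filled points passed the threshold. Rows are ordered by median, from ribosome biogenesis (0.50) at the top to secondary and tertiary granule genes (-4.45) at the bottom.

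Some progenitor genes stood higher in P248L than in wild-type cells at day 2, although most had fallen there since the start. From untreated to day 2, 12 of 18 tested stem and progenitor genes fell in P248L cells and 2 rose (median log2 change -0.99). Over all genes tested, 21.5% fell and 18.5% rose in P248L cells. Kit (chromosome 5, 75574987 to 75656722) stood at 23.8, 22.4 and 13.5 CPM in wild-type and 101, 116 and 108 CPM in P248L libraries (log2 fold change 2.44 ± 0.21). Both lines had begun at 353 ± 18.2 and 305 ± 67.5 CPM, and the log2 change to day 2 was -1.49 ± 0.20 in P248L cells against -4.15 ± 0.22 in wild-type cells. Flt3, a receptor of early progenitors, read 0.566, 0.689 and 0.157 CPM in wild-type and 3.72, 4.31 and 3.97 CPM in P248L libraries, after 133 ± 8.11 and 127 ± 16.1 CPM untreated. Hlf, a stem cell transcription factor, read 1.53, 1.43 and 2.09 CPM in wild-type and 10.6, 12.3 and 14.3 CPM in P248L libraries, after 111 ± 5.54 and 151 ± 35.9 CPM. In all 3 genes the P248L libraries lay above the wild-type ones and below every untreated library of their line. Cd34, a progenitor surface protein, was at 251 ± 30.9 and 562 ± 49.9 CPM. The list of 18 tested stem and progenitor genes held 7 higher and 3 lower members (median 0.35), the lower ones including Prom1, a surface glycoprotein, at 33.6 ± 4.05 and 4.4 ± 0.654 CPM. Hoxa9 and Meis1, homeobox partners of progenitors, did not pass: Hoxa9 stood at 1.6 ± 0.185 and 1.64 ± 0.446 CPM, with a wide interval of -1.51 to 1.65, and Meis1 at 6.86 ± 0.662 and 8.76 ± 0.503 CPM. Myb, a factor of dividing progenitors, had an interval of -0.03 to 0.68. Hoxb8 had no reads in any library. By edgeR the largest adjusted p of the called genes was 1.6e-06 (Cd34).

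Of 10 primary granule genes 4 were higher and 2 lower (median 0.42), where 15.5% of all genes tested were higher and 20.3% lower. Without both libraries that stood apart, 7 were higher. Without wild-type library 3, 1 was lower. Mpo, myeloperoxidase, read 2647, 2099 and 2084 CPM in wild-type and 8295, 6374 and 3933 CPM in P248L libraries (log2 fold change 1.45 ± 0.24). It fell in wild-type cells from 7073 ± 504 CPM and did not pass in P248L cells, which began at 6312 ± 1238 CPM (adjusted p = 0.96). The protease gene Ctsg was at 313 ± 42.9 and 570.3 ± 145 CPM and Cst7, cystatin F, at 75.3 ± 4.36 and 135 ± 32.3 CPM, both higher in P248L cells. Elane, neutrophil elastase, did not pass between the lines, at 35.0, 25.3 and 27.9 CPM in wild-type and 48.8, 34.5 and 16.1 CPM in P248L libraries. It rose in both from unequal starts of 11.7 ± 0.141 and 2.78 ± 1.5 CPM. Ms4a3, a granulocyte progenitor gene, was at 922 ± 29.0 and 948 ± 98.7 CPM (interval -0.28 to 0.36). Serpinb1a, an inhibitor of neutrophil proteases, was a lower member, at 1299.7 ± 106 and 586 ± 72.8 CPM. Of the called genes Ctsg had the largest edgeR adjusted p, 0.0073. At day 5 Mpo was at 6.32 ± 1.76 CPM in wild-type and 240.0 ± 37.5 CPM in P248L cells.

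Of 18 mitosis and G2/M genes 1 was higher in P248L cells and none lower (median 0.05), and the higher one, the cyclin gene Ccna2, did not pass without P248L library 3 (edgeR adjusted p = 0.074). Without P248L library 1, 2 were higher. Top2a, a topoisomerase of dividing cells, was at 866 ± 55.7 and 1029.9 ± 291 CPM and Mki67, the proliferation marker, at 1033 ± 140.1 and 909 ± 256 CPM, with intervals of -0.17 to 0.67 and -0.86 to 0.49. Among 20 genes of DNA replication and G1/S 8 were higher and none lower (median 0.30), with 1 lower without P248L library 3 and 3 lower after removal of the length and GC trend. The higher ones included the helicase subunits Mcm6, at 424 ± 11.3 and 686 ± 47.5 CPM, and Mcm7, at 189 ± 12.9 and 295 ± 36.2 CPM. Of 7 inhibitors of cyclin-dependent kinases tested 4 were lower, Cdkn1a, Cdkn2a, Cdkn2b and Cdkn2d. Cdkn2a stood at 21.6 ± 0.889 CPM in wild-type and 0.62 ± 0.328 CPM in P248L cells, having differed untreated too (10.4 ± 2.56 and 2.11 ± 0.509 CPM). Its neighbour Cdkn2b had 1 read in P248L libraries against 10.7 ± 2.25 CPM, 566-fold lower with a counting interval of 101 to 22405, and here the untreated levels were 0.347 ± 0.0975 and 0.201 ± 0.159 CPM. Cdkn2d, of the same family, was at 37.4 ± 5.12 and 14.2 ± 2.72 CPM. Of 12 D cyclins and kinase inhibitors 6 were lower and none higher, against 20.3 and 15.5% of all genes tested. Without P248L library 3, 1 was higher. Folds with 1 to 3 reads carry counting error only.

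Myc, the growth factor-driven regulator of ribosome production, was higher in P248L cells, at 544, 364 and 495 CPM against 285, 218 and 261 CPM (log2 fold change 0.88 ± 0.19). Ribosome biogenesis genes were higher in 17 of 22 tested members and lower in none (median 0.50). Untreated, 5 of the 22 were already higher and none lower (median 0.28), where 10.3% of all genes tested were higher. In the difference of responses 1 of the 22 was higher and none lower. Wdr43 and Nop58, which act in ribosomal RNA processing, were both higher at day 2. Wdr43 read 303, 318 and 317 CPM in wild-type and 601, 685 and 889.6 CPM in P248L libraries, and Nop58 502, 531 and 551 CPM in wild-type and 776, 857 and 1314 CPM in P248L libraries. Gnl3, a nucleolar GTPase, was at 218 ± 15.7 and 379 ± 94.0 CPM. P248L library 3 was highest for each of the 3. Of 11 tested genes of the MYC network 5 were lower and 3 higher at day 2, against 20.3 and 15.5% of all genes tested. Untreated, 4 were lower and none higher, and in the difference of responses 3 were lower and none higher. Without wild-type library 2 or P248L library 1, 1 gene of the network was higher. Of its 5 antagonists of MYC, Mxd1, Mxd4 and Mxi1 were lower, and Mxd3 and Mnt did not pass (intervals -1.21 to 0.02 and -0.53 to 0.19). Mxd3 was named after its values were seen. Mxd1 read 153, 154 and 123 CPM in wild-type and 16.2, 16.9 and 14.6 CPM in P248L libraries (log2 fold change -3.17 ± 0.14), and Mxi1 was at 80.4 ± 3.6 and 37.5 ± 2.0 CPM. Mycn, a relative of Myc, was at 6.89 ± 0.772 and 0.0891 ± 0.0925 CPM, after 1.03 ± 0.521 and 0.0125 ± 0.0217 CPM untreated. Of the genes called here, the largest edgeR adjusted p was 0.0014 (Myc).

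Metabolic genes moved in part. Amino acid stress genes, targets of ATF4, were lower in 10 of 20 members and higher in none, or in 1 without P248L library 3 (median -0.50). Slc7a11, the cystine transporter, read 1159.7, 1263 and 805 CPM in wild-type and 87.2, 132 and 137 CPM in P248L libraries (log2 fold change -3.18 ± 0.29). The pseudokinase gene Trib3 was at 25.1 ± 2.57 and 5.76 ± 0.944 CPM, while Atf4 itself (interval -0.57 to 0.01) and the serine synthesis gene Psat1 (interval -0.20 to 0.32) did not pass. Cholesterol synthesis genes were lower in 10 of 21 members (median -0.43), with Fdps, farnesyl diphosphate synthase, at 247 ± 19.9 and 118 ± 25.8 CPM and Lss, lanosterol synthase, at 82.3 ± 10.0 and 46.2 ± 9.11 CPM. The glucose transporter gene Slc2a3 stood at 62.1 ± 13.5 and 3.47 ± 1.16 CPM, whereas 15 of 20 genes of glycolysis and hypoxia did not pass, Ldha, lactate dehydrogenase, among them at 1081 ± 98.0 and 1319 ± 96.2 CPM. Of 19 oxidative phosphorylation genes 17 did not pass and 2 were higher (median 0.11), 1 without wild-type library 1 or P248L library 3. Among the genes called here, the largest edgeR adjusted p was 5.9e-04 (Lss).

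Of 15 BCL2 family genes 6 were lower and 2 higher, where 20.3% of all genes tested were lower and 15.5% higher. Beside Bcl2l1 the lower ones included Bcl2a1b, an anti-apoptotic gene with near-identical copies and thus uncertain, at 58.9 ± 6.71 CPM in wild-type and 6.87 ± 4.68 CPM in P248L cells. Mcl1, another anti-apoptotic gene, read 369, 389 and 364 CPM in wild-type and 244, 264 and 336 CPM in P248L libraries (log2 fold change -0.41 ± 0.12, edgeR adjusted p = 0.013). Mcl1 did not pass without wild-type library 2 or without P248L library 1 or 2 (adjusted p of 0.062, 0.064 and 0.063) or after removal of the length and GC trend (0.21). The pro-apoptotic Bak1 had an interval of -0.31 to 0.57. Among 14 p53 targets 10 were lower and none higher (median -0.79). Zmat3, an RNA-binding p53 target, was at 30.5 ± 1.64 and 6.41 ± 1.24 CPM and Mdm2, the ligase that restrains p53, at 192 ± 11.3 and 87.8 ± 14.4 CPM. The largest edgeR adjusted p of the called genes, Mcl1 left aside, was 5.0e-06 (Mdm2).

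Monocyte, lysosome and interferon genes were lower more often than higher. Of 16 monocyte and macrophage genes 6 were lower and 2 higher (median -0.40), where 20.3% of all genes tested were lower and 15.5% higher. Untreated, 8 of the 16 were lower and 2 higher (median -0.90). In the difference of responses 5 were lower and 3 higher (median -0.11). The genes lower at day 2 included Lgals3, galectin-3, at 46.6 ± 4.06 CPM in wild-type and 0.176 ± 0.0905 CPM in P248L cells. Msr1, a scavenger receptor, was at 34.0 ± 2.08 and 1.05 ± 0.225 CPM. Of 22 lysosome genes 12 were lower and 1 higher (median -0.61). The protease gene Ctsl was at 66.7 ± 2.73 and 5.92 ± 1.12 CPM. Cd63, a membrane protein of lysosomes and granules, was at 46.7 ± 8.32 and 2.46 ± 0.368 CPM, after 9.34 ± 2.24 and 0.77 ± 0.415 CPM untreated. Of 27 interferon response genes 11 were lower and 3 higher (median -0.63). Ddx58, the RNA sensor RIG-I, was at 9.4 ± 2.68 and 2.37 ± 0.575 CPM and Oas3, an antiviral synthetase, at 2.16 ± 0.61 and 0.546 ± 0.157 CPM. At day 5 the median of the interferon list was -4.37. Among the genes called here, the largest edgeR adjusted p was 2.7e-05 (Oas3).

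Responses that both lines shared were next named by rule: genes past the threshold in the same direction in each line's own change from untreated to day 2, whose interval at day 2 lay within 2-fold. These are descriptions, since the interval chose them. Besides Cish and Pim1, the rises were Tmem154, from 7.81 ± 0.157 to 127 ± 5.5 CPM in wild-type and from 9.37 ± 0.759 to 141 ± 18.3 CPM in P248L cells, Tgm1, a transglutaminase, to 20.2 ± 2.06 and 15.5 ± 3.15 CPM, Sema4a, a semaphorin, to 92.2 ± 5.35 and 101 ± 32.3 CPM and Akr1c13, an aldo-keto reductase, to 276 ± 26.9 and 309 ± 20.9 CPM. Sema4a and Akr1c13 reached like levels by unequal rises (edgeR adjusted p of the difference = 8.6e-04 and 0.0056), since they began higher in P248L cells, at 11.8 ± 0.942 and 36.5 ± 5.05 CPM against 3.79 ± 0.428 and 13.6 ± 1.45 CPM. The shared falls included Ccr2, a chemokine receptor of monocytes, from 1623 ± 102 to 169 ± 36.5 CPM and from 1323 ± 229 to 130.0 ± 66.5 CPM, Abcb1a, a drug efflux pump, to 1.04 ± 0.0865 and 1.22 ± 0.44 CPM and Tspan13, a tetraspanin, to 2.55 ± 0.699 and 2.33 ± 0.4 CPM.

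Across all genes, 2638 rose and 2600 fell from untreated to day 2 in wild-type cells (22.1 and 21.8%) and 2213 rose and 2562 fell in P248L cells (18.5 and 21.5%). Together these are 43.9 and 40% of all genes tested. These changes share no library. Both lines had 1354 rises in common, which are 51.3% of the wild-type and 61.2% of the P248L rises, and 1554 falls, 59.8 and 60.7%. The difference of the responses itself passed for 1140 genes (9.55%), 776 with a lower (6.5%) and 364 with a higher response in P248L cells (3.05%). These counts moved with single libraries, to between 219 and 815 higher and between 571 and 1104 lower with 1 library left out, and DESeq2 gave 750 higher. In simulated counts a gene was easier to call in a comparison of groups than in a difference of responses. There 2-fold changes were recovered in 72 and 43% and 4-fold changes in 100 and 96% of the genes given a change. Those genes had a mean of 1 CPM or more, and no simulated library stood apart. The shares therefore do not cover genes of lower level or libraries that stand apart. Of the lists, secondary and tertiary granule genes had a lower response in 14 of 25 members, chemokines in 11 of 20, immediate-early and MAPK feedback genes in 11 of 25 and basophil and mast cell genes in 9 of 13, with no higher response apart from 1 immediate-early gene. Mitosis and G2/M, oxidative phosphorylation and JAK and STAT genes had none past the threshold in either direction by edgeR.

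**Figure D4:**
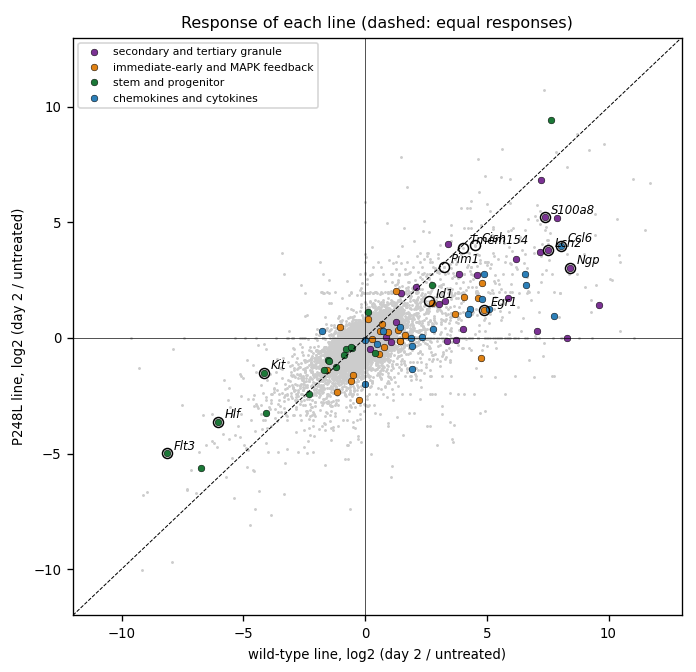
Each grey point is a gene tested; the axes give the log2 change from untreated to day 2 in the wild-type line (horizontal) and in the P248L line (vertical), and colours mark 4 gene lists. Cish, Pim1 and Tmem154 lie near the dashed line of equal responses, Ngp, Egr1, Lcn2 and Ccl6 far below it, and Kit, Flt3 and Hlf above it on the side of falls.

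Part of what the P248L line lacked at day 2 was lacking before IL-3. Untreated, 2587 genes (21.7%) differed between the lines, 1353 lower (11.3%) and 1234 higher (10.3%) in P248L cells. With 1 library left out, the counts ranged from 857 to 2253 lower and from 659 to 2271 higher. With all libraries, of the 2427 genes lower at day 2, 891 (36.7%) were lower untreated, and of the 1847 higher ones 602 (32.6%) were higher untreated. With at most 3 reads over the P248L libraries and 10 CPM or more in every wild-type library, 16 genes were silent in the P248L line at day 2, and no gene was silent in the wild-type line in this sense. For 13 of the 16 the untreated P248L libraries also held at most 3 reads, and for 9 those of day 5 did. Only 8 of the 16 were at 10 CPM or more in every untreated wild-type library. Gphn, which encodes the scaffold protein gephyrin, had no reads against 36.3 ± 2.36 CPM in wild-type, at least 649.6-fold lower, and stood at 32.0 ± 2.67 against 0.0109 ± 0.0189 CPM untreated. Lonrf3, a ring finger gene, had 1 read against 57.1 ± 6.52 CPM, 3059-fold lower with a counting interval of 549 to 120847, and no reads in P248L untreated libraries against 24.3 ± 1.85 CPM. Chchd10, a mitochondrial protein gene, and Cpped1, a phosphatase gene, had no reads in P248L cells at day 2 or untreated, against 20.5 ± 1.84 and 14.4 ± 1.2 CPM in wild-type cells at day 2. Ckap4, a membrane protein of the endoplasmic reticulum, rose in wild-type cells from 3.02 ± 0.855 to 72.0 ± 10.0 CPM and had 1 read in P248L libraries at day 2.

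Several of the genes with the largest differences upward were higher in P248L cells untreated as well. Kcnn4, a potassium channel, read 1.22, 0.975 and 1.15 CPM in wild-type and 48.2, 33.8 and 20.9 CPM in P248L libraries, after 2.77 ± 0.102 and 81.0 ± 25.4 CPM untreated. Chd3, a chromatin remodeller, read 1.35, 1.49 and 0.418 CPM in wild-type and 36.0, 33.2 and 31.5 CPM in P248L libraries, after 1.5 ± 0.439 and 71.5 ± 19.4 CPM, and Nefh, a neurofilament subunit, 9.93, 9.75 and 10.7 CPM in wild-type and 134, 115 and 148 CPM in P248L libraries, after 10.1 ± 0.675 and 83.5 ± 13.6 CPM. Elavl2, an RNA-binding protein, differed both before and in its response: it rose in P248L cells from 5.99 ± 0.847 to 24.0 ± 5.88 CPM and was at 0.559 ± 0.101 and 0.179 ± 0.0787 CPM in wild-type cells. S1pr3, a sphingosine phosphate receptor, fell in both lines, less so in P248L cells, and stood at 20.5 ± 1.41 and 32.8 ± 2.34 CPM untreated and 0.581 ± 0.105 and 11.0 ± 1.76 CPM at day 2. Rn45s was among the largest rises by rule (808, 1127 and 1128 CPM in wild-type and 1233, 1499 and 37741 CPM in P248L libraries), and it was not called without P248L library 3 (log2 fold change 0.42, adjusted p = 0.47) or by limma-voom (0.064). The largest edgeR adjusted p of the other genes in this paragraph was 1.2e-09 (Kcnn4).

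By day 5, 5433 genes (45.5%) differed between the lines, 2717 higher and 2716 lower in P248L cells, in libraries that the day 2 comparison does not use. Of the genes lower in P248L cells at day 2, 1191 (49.1%) were lower at day 5 and 372 (15.3%) were higher. Of those higher at day 2, 881 (47.7%) were higher and 178 (9.64%) lower at day 5. Granule, immediate-early and lineage factor lists had medians near 0 at day 5 (0.06, 0.28 and 0.11), with members on both sides. Of 25 granule genes 10 were higher and 7 lower (log2 fold changes of -3.20 to 5.20), of 25 immediate-early genes 9 and 7, and of 16 lineage factors 6 and 6. Of 13 basophil and mast cell genes 10 were lower and none higher (median -2.36), Cpa3 standing at 2552 ± 490.2 CPM in wild-type and 37.8 ± 10.4 CPM in P248L cells. Of 10 primary granule genes 7 were higher and 2 lower at day 5. They had a median of 2.92 at day 5 against 0.42 at day 2. Cish stood at 177 ± 10.9 CPM in wild-type and 246 ± 11.3 CPM in P248L cells at day 5 and Kit at 38.7 ± 4.3 and 28.9 ± 5.61 CPM.

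**Figure D5:**
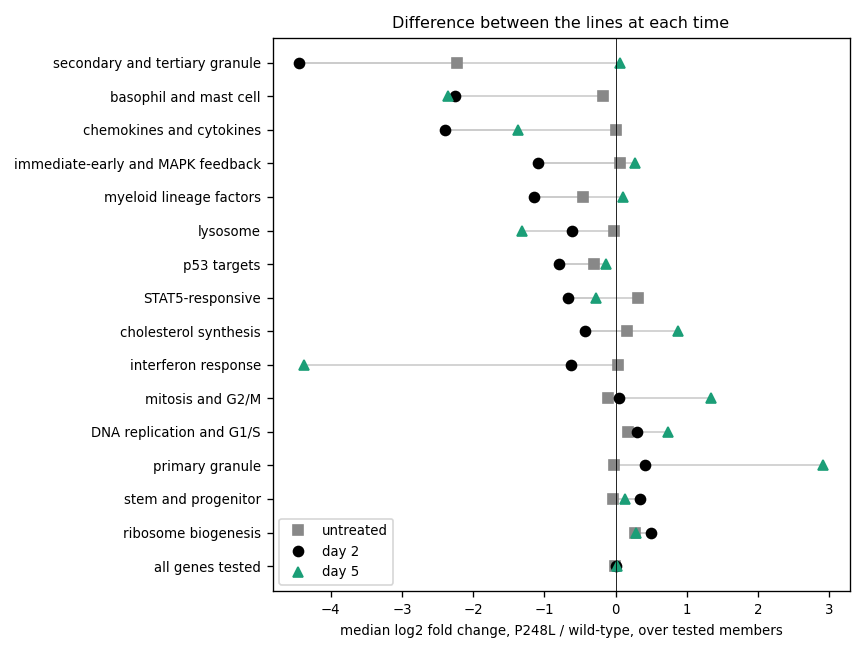
For 15 gene lists and for all genes tested, the horizontal axis gives the median log2 fold change of P248L over wild-type untreated (square), at day 2 (circle) and at day 5 (triangle). The granule list runs from -2.22 untreated to -4.45 at day 2 and 0.06 at day 5, the primary granule list from -0.02 to 0.42 and 2.92, and all genes stay near 0.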

How the data were processed

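Total RNA of FDH cells was sequenced in 18 libraries, 3 for each of 6 groups (2 lines, each untreated, at day 2 and at day 5 in IL-3). The authors deposited read counts per gene, made with STAR on mm10 per the submitters' processing notes; no source used here gives versions, gene annotation or filters. Column 4 of the gene count files, the counts of 1 strand, was used, since it holds nearly all gene reads (the other strand held 1.17 to 2.54%). In day 2 libraries 30.7 to 38.1% of reads were assigned to no single gene and stayed out of library sizes. Genes with near-identical copies are uncertain, since the files list multimapping reads apart from the genes.

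All 18 libraries were fitted together in edgeR 4.0.16 (R 4.3.3), with TMM scaling, a minimum count of 10 (filterByExpr, 11942 of 23329 genes), the quasi-likelihood test and Benjamini-Hochberg adjustment over all genes tested within each of 6 comparisons; the common biological coefficient of variation was 0.17 with 12 residual degrees of freedom. Each SE is |log2 fold change| divided by the root of the F statistic. A fold against no reads uses a floor of 3 reads over the group, and counting intervals are exact 95% and cover counting error only. The fit was tested on simulated data of the day 2 comparison and of the difference of responses over 11942 genes each. Only some genes, at a mean of 1 CPM or more, were given a change in them. Alternatives were DESeq2 1.42.0, limma-voom 3.58.1, other scalings and filters, only the groups compared, a replicate block, counts of both strands, a length and GC trend removed (mgcv 1.9.3) and each library left out. Leaving out both libraries that stand apart, or Rn45s, was chosen after seeing the data.

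The comparison, its members and the gene lists were chosen with earlier results of these data known, so they support nothing on their own. Named genes were the 12 largest differences each way without overlap of libraries and at 10 CPM or more, members of each list with the smallest adjusted p or the highest level among those that did not pass, a set of genes of the receptor and its known targets, the 6 largest kept rises and falls, and up to 6 silent genes; the text gives some of them. A further 9 genes (Anxa1, Camp, Cd34, Ctsg, Gfi1, Irf8, Lcn2, S100a8 and S100a9) were named after their values were seen, and so was Mxd3. Gene positions and promoters come from RefSeq on GRCm38.p6, the build that mm10 is based on, and 23035 of 23329 gene names matched. Figures were drawn with matplotlib 3.10.9.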

Additional observations from a re-analysis of the deposited data

Results flagged for a closer look

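The change from untreated to day 2 differed between the lines, by the test of the difference of responses in edgeR, for 776 genes with a lower and 364 genes with a higher response in P248L cells. Among 89 named genes past the threshold in it, 29 did not pass under at least 1 alternative. Values below are that difference on the log2 scale, P248L minus wild-type.

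Lower responses were seen for granule genes, with -5.37 for Ngp, -4.12 for Ltf, -8.17 for Cd177 and -1.58 for the lysozyme gene Lyz2, and for the stefin genes Stfa2 (-7.63), Stfa2l1 (-6.82) and Stfa3 (-8.17), which are multi-copy and uncertain. Without P248L untreated library 2 the differences of Ngp, Ltf, Stfa2, Stfa2l1 and Stfa3 did not pass (adjusted p of 0.12, 0.24, 0.32, 0.11 and 0.085). Receptor genes gave -1.30 for Csf2ra, -1.45 for Csf2rb and -1.61 for its near-identical copy Csf2rb2. Csf2rb and Csf2rb2 belong to the subunits deleted in the mice, and the source of their reads was not tested. Signalling targets gave -3.67 for Egr1, -2.43 for Dusp6, -3.03 for Osm and -1.11 for Bcl2l1, and the chemokine gene Ccl6 gave -4.04. Cyp11a1, at -1.05, lay at the threshold (edgeR adjusted p = 0.0498) and did not pass under 20 alternatives, with an adjusted p of up to 0.14.

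Higher responses were seen for the progenitor genes Kit (2.65), Flt3 (3.13) and Hlf (2.43), for the primary granule genes Mpo (1.61) and Elane (2.23), and for S1pr3 (3.57), Elavl2 (3.56) and Eng (1.60). Kit, Flt3, Hlf and S1pr3 fell in both lines and fell less in P248L cells. Eng, a co-receptor of the TGF-beta family, did not pass under 2 alternatives (edgeR adjusted p of up to 0.053).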

How the results depend on the processing

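At day 2 the counts of 1847 higher and 2427 lower genes stayed within 1.5 times under all alternatives but an adjusted p under 0.01 (1074 higher), and leaving out each library gave 1393 to 2112 higher and 1969 to 2531 lower. The share of calls that were higher was 43.2%, and 37.2 to 50.5% over the alternatives. Of 146 named genes past the threshold at day 2, 138 passed in the same direction under every alternative, 8 did not pass under at least 1 (Actb, Ccna2, Hk1, Mcl1, Ndufs1, Pdk1, Pim1 and Rn45s) and 0 reversed. For the difference of responses 60 of 89 held under every alternative, 29 did not pass under at least 1 and 0 reversed.

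The untreated comparison and the difference of responses depended on single libraries. Untreated, the counts were 573 higher and 695 lower with only the groups compared and 573 and 770 at 0.01; leaving out each library gave 659 to 2271 higher and 857 to 2253 lower, with 659 and 891 without wild-type untreated library 1, 662 and 857 without library 3, 748 higher without P248L untreated library 1, and 2271 and 2253 without P248L untreated library 3. For the difference of responses, higher genes numbered 750 by DESeq2 (908 lower), 191 with only the groups compared, 122 at 0.01 (467 lower) and 594 with the length and GC trend removed. Leaving out each library gave 219 to 815 higher and 571 to 1104 lower genes. The lowest were without wild-type untreated library 1 (219) or 3 (233) or wild-type day 2 library 1 (228) or 3 (233), the highest without P248L untreated library 3 (815) or P248L day 2 library 1 (811). The P248L change to day 2 gave 652 higher and 1055 lower genes with only the groups compared and 1458 higher at 0.01, and leaving out each library gave 1895 to 2680 and 1990 to 2806. The wild-type change gave 2219 to 2366 and 2133 to 2261, and day 5 gave 2210 to 2403 and 2330 to 2503. Without scaling beyond library size, untreated calls split into 862 higher and 1546 lower, wild-type changes into 1950 and 3470 and P248L changes into 1570 and 2997. The cause of these shifts was not tested.

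With a replicate block, the day 2 comparison had 1846 higher and 2492 lower genes, the untreated one 1157 and 1359, the difference of responses 389 and 801, and changes to day 2 numbered 2659 and 2650 in wild-type and 2287 and 2627 in P248L cells; day 5 had 2777 and 2772. Libraries of the same number at day 2 correlated at 0.179, 0.0838 and -0.0766 between the lines, and those of other numbers at -0.293 to 0.21. With 3 libraries in each group, these values cannot tell whether the numbers pair libraries. Same-numbered libraries of untreated and day 2 P248L cells correlated at 0.46, 0.175 and 0.348, and no label explains the numbers.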

Other observations

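Genes that mark other lineages were few and differed between the lines. Hnf4a, a nuclear receptor of hepatocytes, read 2.14, 2.12 and 2.04 CPM in wild-type and 14.8, 10.3 and 8.60 CPM in P248L libraries at day 2. Afp, alpha-fetoprotein, went the other way, with 14.0, 13.3 and 14.3 CPM in wild-type and 1.12, 0.80 and 1.18 CPM in P248L libraries. The hepatocyte genes Alb, Ttr and Serpina1a had no reads in any day 2 library. Pdgfrb, a receptor of stromal cells, had 3 reads over the wild-type libraries and read 6.00, 4.37 and 3.53 CPM in P248L libraries, 97.0-fold higher with a counting interval of 32.8 to 473. Pecam1, an adhesion molecule of endothelial and blood cells, read 169, 173 and 148 CPM in wild-type and 69.6, 67.3 and 71.8 CPM in P248L libraries. Itga2b, an integrin of megakaryocytes, read 25.9, 29.0 and 18.7 CPM in wild-type and 11.2, 8.56 and 4.56 CPM in P248L libraries, while the platelet chemokine Pf4 read 2.14, 2.30 and 2.77 CPM and 3.47, 3.20 and 3.16 CPM. Cd74, the invariant chain of antigen presentation, read 8.80, 8.38 and 11.0 CPM in wild-type and 1.86, 2.03 and 1.91 CPM in P248L libraries. The part of these markers in the results was not tested.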
